A study of Homo sapiens with 6 samples.

Results

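The 10 genes described here are receptors of the CD28 family and ligands of the B7 family, with HHLA2 and its receptor TMIGD2. They were taken by name from a deposited table of 33644 genes, and all 10 were found in it. They were selected on family membership with the deposited log2 fold changes and adjusted p-values in view, HHLA2 having one of the smallest adjusted p-values of the table, so every change below is a description and supports no claim about the family. The members are the receptors CD28, ICOS and TMIGD2 and the ligands CD80, CD86, ICOSLG, CD274, PDCD1LG2, CD276 and HHLA2.

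The series, per its labels, compared HEK293T cells, a human embryonic kidney line with the SV40 large T antigen, of genotype WT (3 samples) with a derivative of genotype alt-LAMA3 KO (3 samples). All 6 samples were at day 0, had no treatment and grew in the same serum-supplemented medium. The labels do not say whether the derivative is 1 clone or whether replicate samples were grown separately, and p-values may thus reflect only technical variation. The table gives 1 comparison between 2 groups that its header does not name. A positive log2 fold change means higher expression in what is called here the numerator group. Neither group is equated with the knockout, and no value per sample was used.

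Most markers of the labelled cell type were low in the table, while T-cell genes were high. The authors' deposited table gave mean normalized counts of 13003 for CD3E and 27074 for CD8A, both T-cell genes, against 3.42 for the keratin gene KRT8 and a listed 0 for the neurofilament gene NEFL. In the marker list of HEK293-derived lines 4 of 16 genes in the table reached a mean normalized count of 72.0 (5 in every 1000000 of the total over genes), and in the T-cell list 9 of 11 did. The 4 were VIM, vimentin, at 54717, which T cells also express, the neurofilament gene NEFH at 855, ENO2 at 556 and L1CAM at 174 in the authors' deposited table. LAMA3, the locus named by the knockout, had a mean normalized count of 18.98 and a log2 fold change of -0.62 (adjusted p = 0.578, SE 0.69) in the authors' deposited table. The lowest means of the table fell on 9 values that many genes shared exactly. Genes at 3 of them had only positive and genes at 3 only negative log2 fold changes, and at the remaining 3 the change was 0. The labels give 6 samples, fewer than these 9 values. With the T-cell genes above, it is thus not known whether the table was made from the labelled HEK293T samples. The number of libraries behind a mean is not stated, and the mean may include libraries of neither group, which touches every level given below.

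T cells need a costimulatory signal beside the one from the antigen receptor. CD28 gives it when it binds CD80 or CD86 on antigen-presenting cells, and ICOS, induced on activated T cells, binds ICOSLG. CD274 (PD-L1) and PDCD1LG2 (PD-L2) bind the inhibitory receptor PD-1, CD276 (B7-H3) is a B7 protein found on many tumours, and HHLA2 (B7-H7) binds TMIGD2 (CD28H), found on resting T cells and natural killer cells. CTLA4, which competes with CD28 for its ligands, and PDCD1, which encodes PD-1, belong to the same receptor family and were not among the 10.

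Promoter sequences are shown for HHLA2 and ICOS, members past the threshold of 0.05 in each direction, and for CD274, which has the most kinds of motif match among the members. Of the 10 members, 8 had entries in RefSeq's promoter windows on GRCh38.p14 (12 windows), and PDCD1LG2 and TMIGD2 are named only. The sequences run 5′ to 3′ on the plus strand within the 250 bases before the annotated start, without bases that GENCODE 29 places in an exon. Capitals mark matches, on either strand, to the motifs searched: the TATA box (TATAAA), the CCAAT box (CCAAT), the GC box (GGGCGG), the AP-1 motif (TGANTCA), the RUNX motif (TGTGGT), the FOXO motif (GTAAACA), the STAT motif or GAS (TTCNNNGAA) and the core of the interferon-stimulated response element, or ISRE (GAAANNGAA).
HHLA2, chr3:108296298-108296489: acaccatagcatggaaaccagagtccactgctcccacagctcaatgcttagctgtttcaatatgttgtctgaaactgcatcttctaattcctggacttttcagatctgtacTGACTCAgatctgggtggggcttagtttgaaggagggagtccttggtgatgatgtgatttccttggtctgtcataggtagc
ICOS, chr2:203936513-203936747: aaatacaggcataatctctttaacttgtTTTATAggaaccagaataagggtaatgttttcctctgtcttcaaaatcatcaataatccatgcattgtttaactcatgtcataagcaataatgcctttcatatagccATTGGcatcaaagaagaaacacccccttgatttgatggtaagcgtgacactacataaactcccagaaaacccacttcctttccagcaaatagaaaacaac
CD274, chr9:5450292-5450502: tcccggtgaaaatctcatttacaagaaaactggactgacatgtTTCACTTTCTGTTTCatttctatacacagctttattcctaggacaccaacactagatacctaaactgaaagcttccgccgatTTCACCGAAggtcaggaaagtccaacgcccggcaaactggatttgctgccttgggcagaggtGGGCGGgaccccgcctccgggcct

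The HHLA2 window shown held an AP-1 match at bases 139 to 133 before the start. That motif was found in 6.57% of 35116 full windows of 250 bases, of which 192 are printed for HHLA2. HHLA2 has 3 windows, for 3 annotated starts, and which of them gave the RNA is not known from a table per gene. The other two held CCAAT matches only, a motif in 32.0% of windows. All 3 were poor in G and C, with 43.2%, 39.6% and 36.4% against a median of 58% over all windows. The ICOS window, at 36.8% G and C, held a TATA match far from the start, at bases 222 to 217, and a CCAAT match at bases 115 to 111. In the CD274 window a pair of ISRE matches overlapped, at bases 207 to 199 and 201 to 193, followed by a GAS match at bases 125 to 117 and a GC box. The ISRE core letters were found in 6.88% and the GAS letters in 6.57% of all windows. These matches are letters in a window and were not tested for binding.

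Levels differed widely among the members. Per kilobase of annotated exon, the mean normalized count was highest for HHLA2 at 719.6, followed by ICOS at 294, CD86 at 217, CD80 at 113, PDCD1LG2 at 92.7 and TMIGD2 at 64.0. It was 11.97 for ICOSLG, 10.2 for CD28, 8.36 for CD274 and 5.19 for CD276, all of them below the 20.03 of the median protein-coding gene with a mean above 0. Only 629 of 15375 such genes lay above HHLA2. The level of ICOSLG is uncertain, because the gene has a near-identical copy, described below. The order of the 10 was the same with the length of the longest transcript or of the longest coding sequence. These levels are means pooled over groups between which some members differ, and the level in each group is not known. For HHLA2 and ICOS the pooled ratio of 2.45 is smaller than the 4.70-fold difference of HHLA2 between the groups, so their order may turn within a group. No spread over samples is known for a level, so it cannot be said which neighbours in this order differ beyond it.

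**Figure D1:**
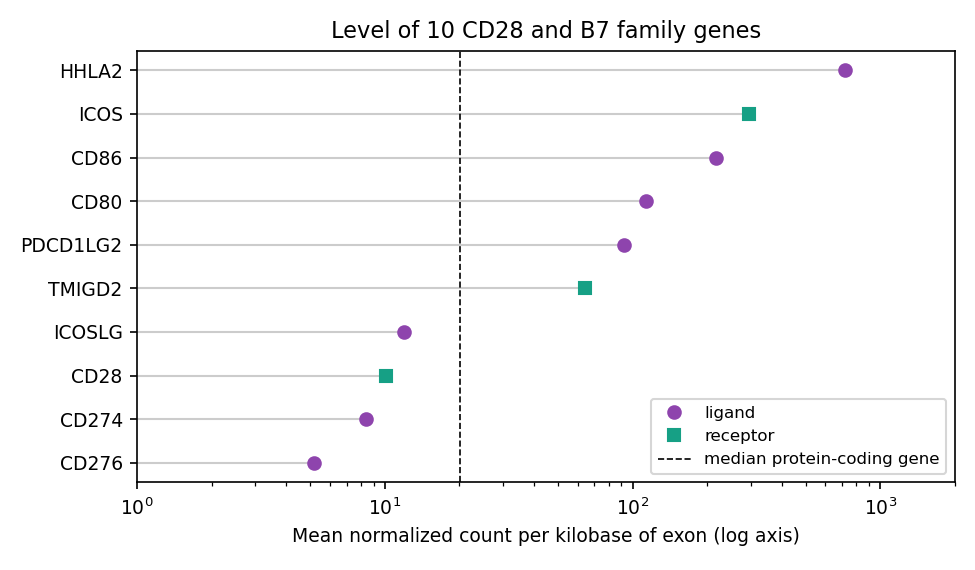
Mean normalized count per kilobase of exon on a log axis for the 7 ligands (circles) and 3 receptors (squares), with the median protein-coding gene as a dashed line. HHLA2 lies at 719.6 and CD276 at 5.19, with 4 members below the line at 20.03.

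Within ligand and receptor pairs the pooled levels were unequal. HHLA2 stood 11.2 times above TMIGD2 per kilobase of exon (22.01 times per kilobase of coding sequence), but these genes differ in opposite directions between the groups, so the pooled ratio, like those below, need not describe either group. CD86 and CD80 stood 21.3 and 11.1 times above CD28 (10.7 and 5.93 times per kilobase of coding sequence). ICOS, in contrast, stood 24.5 times above ICOSLG (16.5 times per kilobase of coding sequence), and 28.95 times above CD28 (18.4 times). The ratio to ICOSLG is uncertain, because ICOSLG holds only 59.5% of the summed mean of itself and a near-identical copy, described below. Of the PD-1 ligands, PDCD1LG2 was 11.1 times above CD274 (6.78 times per kilobase of coding sequence). CTLA4 was listed at 0 and PDCD1 had a mean normalized count of 0.499 in the authors' deposited table. A listed 0 is not shown to be an absent mRNA, and CD5, which T cells widely express, had only 1.87 beside 13003 for CD3E in the authors' deposited table.

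Markers of antigen-presenting cells, the usual source of CD80 and CD86, were mostly low. In the B-cell list 0 of 8 genes reached 72.0, with 26.8 for CD79B as the highest and a listed 0 for MS4A1 in the authors' deposited table. In the list of monocytes, macrophages and dendritic cells 2 of 13 genes reached it and 4 were listed at 0. The authors' deposited table gave 754 for ITGAX (CD11c), 103 for CD68, 20.7 for CSF1R and 2.38 for CD14. Of 5 tested genes of that list 2 were higher and 1 was lower (14.7% and 14.8% of all tested genes). The higher genes were ITGAX and CSF1R, with log2 fold changes of 2.61 (SE 0.18) and 4.20 (SE 0.76) in the authors' deposited table. LYZ, lysozyme, was lower at -6.02 (adjusted p = 0.00816, SE 1.93) and a mean normalized count of 4.06, and CD68 was at -0.55 (adjusted p = 0.0811, SE 0.25) in the authors' deposited table. Their part in the levels and changes of the B7 ligands was not tested.

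The 3 members past the threshold were HHLA2, higher in the numerator group, and ICOS and TMIGD2, lower in it. That is 1 of 10 members higher and 2 of 10 lower, where 14.7% and 14.8% of the 13957 genes with an adjusted p in the table were called in those directions (29.5% in both), so the share called is near the background. Under 4 alternatives in which 18% (no filter on low means), 45.7% (genes with a mean of at least 72.0), 32.4% (protein-coding genes) and 8.58% (widened errors) of genes were called, the members' counts stayed at 1 and 2. All 10 members had an adjusted p, 7 of them at or above a mean normalized count of 72.0. The median log2 fold change of the 10 was -0.03, against 0.00 over all genes tested. In RNA from a bulk sample, fewer cells that express a gene and less of its RNA per cell cannot be told apart.

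**Figure D2:**
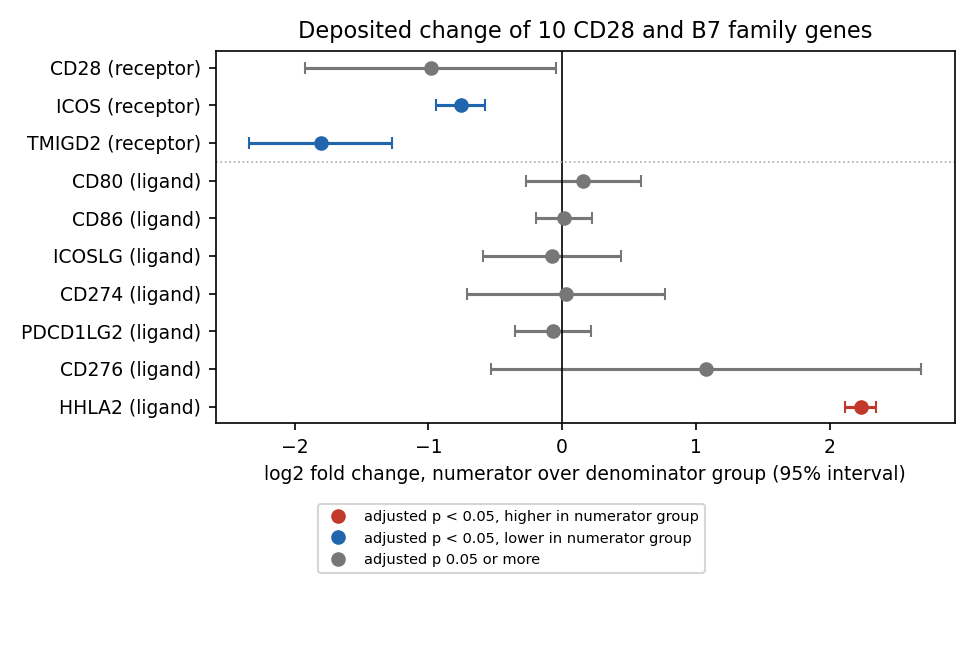
Log2 fold change of each member between the numerator and the denominator group, with its 95% interval, receptors above the dotted line and ligands below it. HHLA2 lies at 2.23, ICOS at -0.76 and TMIGD2 at -1.81, and the intervals of 6 of the 7 ligands include 0.

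HHLA2 had a mean normalized count of 2609.9 and a log2 fold change of 2.23 (SE 0.06) in the authors' deposited table, with an adjusted p listed at 0. This is 4.70-fold, with a 95% interval of 4.34 to 5.10. It had the fourth-highest statistic of the table, and 40 of 8047 protein-coding genes with a mean of at least 72.0 had a larger log2 fold change. The protein-coding genes with such a mean and the closest log2 fold change were SERPINE2, an inhibitor of serine proteases, at 2.25 (SE 0.24), LMCD1 at 2.21 (SE 0.28) and PRKCE, a protein kinase C, at 2.20 (SE 0.22) in the authors' deposited table. That likeness is over 1 comparison only, and the mean normalized counts of these 3 were 140, 79.5 and 141 in the authors' deposited table, far below that of HHLA2. Of the 31-base windows in HHLA2 transcripts, 5.90% occur in other genes, and a pseudogene on the opposite strand within HHLA2, HNRNPA1P17, had a mean normalized count of 5.14 in the authors' deposited table. HHLA2 is also known from epithelia, and in the epithelial list 1 of 9 genes reached 72.0 and 3 were listed at 0. That gene was CDH1, E-cadherin, with a mean normalized count of 74.8 and a log2 fold change of 3.98 (SE 0.57) in the authors' deposited table. CDH1 was 1 of 4 tested epithelial genes and the only one past the threshold, where 14.7% of all tested genes were higher. Among the 3 that did not pass, CLDN4 had a deposited change of 2.24 (adjusted p = 0.102, SE 1.07). KRT8 (-0.77, adjusted p = 0.704, SE 1.17) and CLDN7 (-0.05, adjusted p = 0.977, SE 0.84) lay below 0. This list is thus too small to describe a change of epithelial genes as a set. The part of CDH1 in the difference of HHLA2 was not tested.

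TMIGD2, the receptor of HHLA2, had a mean normalized count of 80.8 and a log2 fold change of -1.81 (adjusted p = 4.49e-10, SE 0.27) in the authors' deposited table, which is 3.50-fold lower (95% interval 2.42 to 5.06). Ligand and receptor thus lay on opposite sides of 0. Markers of natural killer cells, which also carry TMIGD2, had 3 of 5 tested genes lower and 0 higher, where 14.8% of all tested genes were lower. They included NCAM1 (CD56) at a log2 fold change of -1.61 (SE 0.10) and a mean normalized count of 576 in the authors' deposited table. TYROBP, a signalling adaptor of those cells, had 0.641 and NCR1 was listed at 0 in the authors' deposited table. Their part in the difference of TMIGD2 was not tested. KIR3DL3, another receptor of HHLA2, was not found in the table.

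ICOS had a mean normalized count of 777 and a log2 fold change of -0.76 (adjusted p = 9.96e-15, SE 0.09) in the authors' deposited table, or 1.69-fold lower (95% interval 1.49 to 1.92). Tested against a 1.5-fold change, ICOS was no longer called (adjusted p = 0.748), while HHLA2 and TMIGD2 were, where 4.68% of genes passed. CD28, at a mean normalized count of 49.6, had a log2 fold change of -0.98 (adjusted p = 0.113, SE 0.48) in the authors' deposited table. The standard error of CD28 exceeded that of 76% of the 200 genes with the nearest means, and its interval reached from -1.92 to -0.04. T-cell markers had 6 of 9 tested genes lower and 0 higher, with a median of -0.51 (14.8% of all tested genes were lower). All 9 had a mean of at least 72.0, and among genes with such a mean 45.7% were called in either direction. The part of the T-cell markers in the differences of the receptors was not tested. Of the 3 receptors, ICOS and TMIGD2 were past the threshold and lower, where 14.8% of all tested genes were lower. CD28 did not pass it, and 3 genes are too few to describe receptors as a set.

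Neither ligand of CD28 passed the threshold. CD86 had a mean normalized count of 744 and a log2 fold change of 0.01 (adjusted p = 0.947, SE 0.11) in the authors' deposited table, and CD80 a count of 362 and a change of 0.16 (adjusted p = 0.672, SE 0.22). The interval of CD86 ran from -0.20 to 0.23 and that of CD80 from -0.27 to 0.59. CD80 overlaps TIMMDC1, a mitochondrial assembly factor gene on the opposite strand, which had a mean normalized count of 1256 in the authors' deposited table. Of the 31-base windows in CD80 transcripts, 24.01% also occur in TIMMDC1 transcripts, so the count of CD80 is uncertain where strand was not used.

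The ligands of PD-1 are neighbours on chromosome 9. CD274 had a mean normalized count of 34.3 and a log2 fold change of 0.03 (adjusted p = 0.973, SE 0.38) in the authors' deposited table. PDCD1LG2 had a mean normalized count of 219 and a log2 fold change of -0.07 (adjusted p = 0.811, SE 0.15) in the authors' deposited table. The standard error of PDCD1LG2 was small for its mean, exceeding that of 4% of the 200 genes nearest in mean, and its interval ran from -0.35 to 0.22. That of CD274 ran from -0.71 to 0.77 and holds changes of up to 1.71-fold upward.

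ICOSLG, the ligand of ICOS, had a mean normalized count of 112 and a log2 fold change of -0.08 (adjusted p = 0.878, SE 0.26) in the authors' deposited table. Its value is uncertain, because GRCh38 carries a near-identical copy on chromosome 21 (FP565260.3, 5022493 to 5040666) that had a mean normalized count of 76.0 and a log2 fold change of -0.57 (adjusted p = 0.198, SE 0.33) in the authors' deposited table. Of the 31-base windows in transcripts of the copy, 95.4% also occur in ICOSLG, which has longer transcripts (34.4% of its own windows are shared). ICOSLG holds 59.5% of the summed mean of both. The table alone does not show how reads were divided between them. CD276 had the lowest mean normalized count of the members, 28.7, and a log2 fold change of 1.07 (adjusted p = 0.370, SE 0.82) in the authors' deposited table. Its interval, from -0.54 to 2.69, is too wide to exclude either no change or one larger than that of HHLA2.

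Among the 7 members that did not pass, the 95% interval lay within 1.5-fold in either direction for 2 (CD86 and PDCD1LG2) and within 2-fold for 5. For CD28 and CD276 it reached past 2-fold, so that the comparison leaves changes of that size undetected in them.

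**Figure D3:**
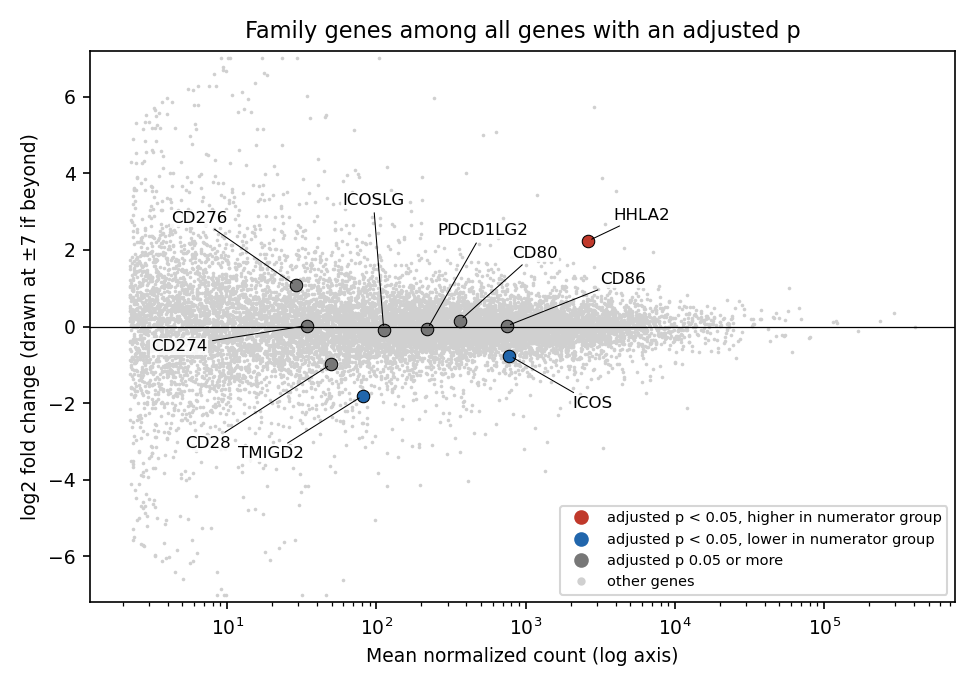
Log2 fold change against mean normalized count (log axis) for all 13957 genes with an adjusted p (grey), with the 10 members marked. HHLA2 lies at a mean of 2609.9 and a change of 2.23, and the 7 members that did not pass lie between -0.98 and 1.07.

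The members lie on 6 chromosomes (GRCh38, GENCODE 29). CD28 (203706475 to 203738912) and ICOS (203936748 to 203961577) flank CTLA4 on chromosome 2, on the plus strand. HHLA2 (108296490 to 108378285, plus), CD80 (119524293 to 119559602, minus) and CD86 (122055366 to 122121139, plus) are on chromosome 3. CD274 (5450503 to 5470566) and PDCD1LG2 (5510570 to 5571254) lie on the plus strand of chromosome 9. CD276 (73683966 to 73714518, plus) is on chromosome 15, TMIGD2 (4292232 to 4302431, minus) on chromosome 19 and ICOSLG (44217014 to 44240966, minus) on chromosome 21.

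The nearest coding genes beside the members numbered 17. Of these, 11 had an adjusted p, of which 2 were higher and 1 lower, with a median log2 fold change of 0.06, a share near the 29.5% of all tested genes. Both neighbours of HHLA2 had positive changes in the authors' deposited table, 0.68 (adjusted p = 8.79e-06, SE 0.14) for IFT57, a gene of ciliary transport 73919 bases away, and 0.66 (adjusted p = 0.0906, SE 0.30) for MYH15, a myosin heavy chain 2083 bases away. FSD1, 2168 bases from TMIGD2, was at -0.19 (adjusted p = 0.703, SE 0.28) in the authors' deposited table. CTLA4, between CD28 and ICOS, was listed at 0. The remaining called neighbours were ADPRH beside CD80, at 0.22 (SE 0.07), and NPTN beside CD276, at -0.49 (SE 0.06), in the authors' deposited table.

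**Figure D4:**
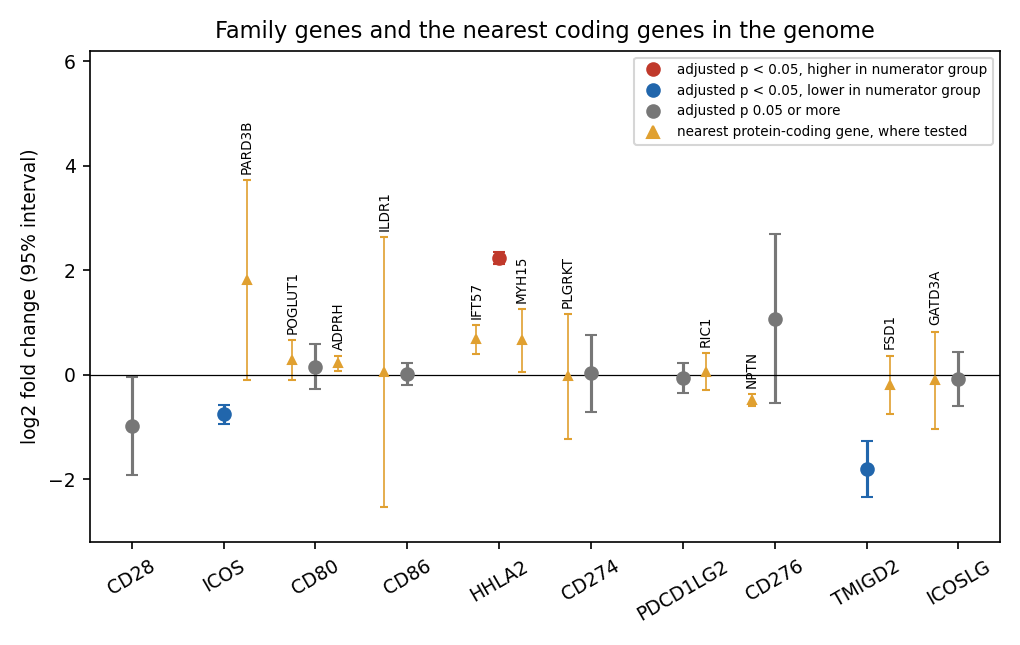
Log2 fold change with 95% interval for each member (circles) and for its nearest protein-coding genes that had an adjusted p (triangles). HHLA2 at 2.23 lies above IFT57 at 0.68 and MYH15 at 0.66, and TMIGD2 at -1.81 lies below FSD1 at -0.19.

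Of the other CD28-family receptors and B7-like proteins, 11 of 14 listed were in the table, 0 reached a mean normalized count of 72.0 and 4 had an adjusted p. Of these 4, 1 was higher and 0 were lower (14.7% and 14.8% of all tested genes). It was CD160, a receptor for TNFRSF14, at a log2 fold change of 3.23 (adjusted p = 2.59e-19, SE 0.34) and a mean normalized count of 57.2 in the authors' deposited table. VSIR (VISTA) was at -0.97 (adjusted p = 0.0941, SE 0.45) and BTLA at -0.09 (adjusted p = 0.973, SE 1.17) in the authors' deposited table. Butyrophilins, relatives of the B7 ligands, had 5 tested members of which 1 was lower (14.8% of all tested genes), BTN3A2 at -0.44 (adjusted p = 0.00927, SE 0.14) in the authors' deposited table, with a median of -0.25.

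Genes that carry the CD28 and ICOS signal were lower more often than higher. Of 20 tested members, 11 were lower, 1 was higher and 8 did not pass, with a median log2 fold change of -0.35 against 0.00 over all genes tested, of which 14.8% were lower and 14.7% higher. Of the 20, 18 had a mean of at least 72.0, and among genes with such a mean 45.7% were called in either direction. The largest falls past the threshold were of PRKCQ, protein kinase C theta, at -1.79 (adjusted p = 1.02e-67, SE 0.10), and of the adaptors GRAP2 at -1.22 (SE 0.08) and LAT at -1.19 (SE 0.05) in the authors' deposited table. PIK3R1, a regulatory subunit of phosphoinositide 3-kinase that was named after its value was seen, was the member that was higher, at 0.61 (adjusted p = 1.42e-08, SE 0.10) in the authors' deposited table. The T-cell markers, with their median of -0.51, had 6 of 9 lower, and their part in the lower signalling genes was not tested.

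Of 13 listed genes induced by CD28 costimulation, 10 were in the table, and CSF2, IFNG and TNF were not found. All 10 were tested, with 7 lower, 1 higher and 2 not past the threshold. Their median log2 fold change was -0.82, and 14.8% of all tested genes were lower. Of the 10, 7 had a mean of at least 72.0, and among genes with such a mean 45.7% were called in either direction. The T-cell markers were also lower in 6 of 9, and their part in this list was not tested. The authors' deposited table gave -2.09 (adjusted p = 5.89e-11, SE 0.30) for IL5, -1.24 (adjusted p = 3.94e-20, SE 0.13) for CD40LG, the ligand of CD40, and -1.01 (adjusted p = 0.000727, SE 0.26) for IL13. The authors' deposited table had MYC, named after its value was seen, as the member that was higher, at 0.73 (SE 0.14).

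Genes of PD-1 and CTLA-4 signalling and trafficking had 2 of 11 tested members higher and 4 lower (median -0.18), where 14.7% and 14.8% of all tested genes were called in those directions. Of the 11, 10 had a mean of at least 72.0, and among genes with such a mean 45.7% were called in either direction. CBLB, a ubiquitin ligase that restrains T-cell activation, was at -1.71 (adjusted p = 7.65e-06, SE 0.35), LRBA, which protects CTLA-4 from degradation, at -1.70 (adjusted p = 5.23e-08, SE 0.29), and the adaptor TRAT1 at -0.82 (SE 0.06) in the authors' deposited table. For proteins that control the turnover of B7 ligands at the cell surface, the counts were 2 of 11 higher and 2 lower (median -0.20). These are near the 14.7% and 14.8% of all tested genes. Of these 11, 8 had a mean of at least 72.0, where 45.7% of genes were called in either direction. The largest change of the list was that of CMTM4, at 1.64 (adjusted p = 1.09e-06, SE 0.31) and a mean normalized count of 64.8 in the authors' deposited table. MARCHF1, a ubiquitin ligase that removes CD86 from the surface, was at 0.69 (adjusted p = 3.36e-06, SE 0.14), its relative MARCHF8 at -0.32 (adjusted p = 0.0145, SE 0.11) and the protease ADAM10 at -0.52 (adjusted p = 4.53e-16, SE 0.06) in the authors' deposited table.

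**Figure D5:**
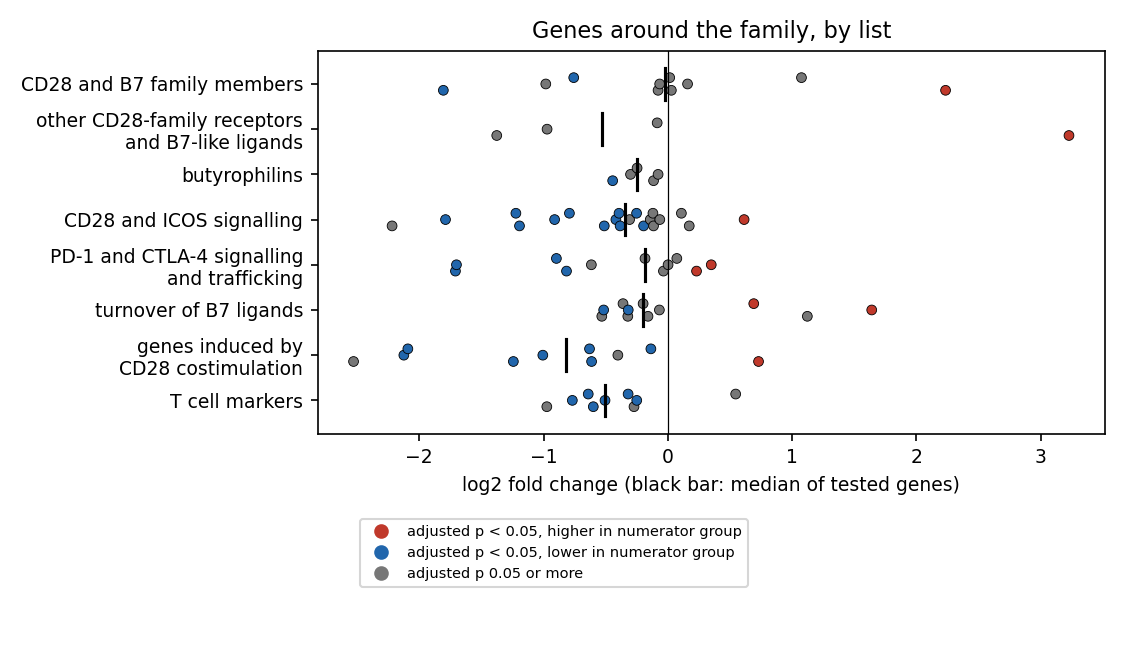
Log2 fold change of each gene with an adjusted p in the family, the lists around it and the T-cell markers, with the median of each list as a bar. The medians of the signalling genes (-0.35) and of the genes induced by costimulation (-0.82) lie below 0, as does that of the T-cell markers (-0.51).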

How the data were processed

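Per the labels, total RNA of WT and alt-LAMA3 KO cells of the HEK293T line was sequenced. The submitters' processing notes list STAR, Salmon and hg38, and their versions and roles are not known here. What program and model made the comparison is not given, and the column names, per the file headers, are those of a DESeq2 results table. The deposited mean normalized count, treated as a signal, covers libraries whose number is not stated. The deposited log2 fold change and its error are on the log2 scale, and the deposited statistic is a score equal to their ratio. The deposited p-value and adjusted p are those of the authors, and the adjusted p equalled Benjamini-Hochberg adjustment over 13957 genes to within 3.66e-07.

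No values per sample were used, so edgeR, DESeq2 and per-sample tests were not run and the deposited comparison stood in for them. The depth per sample is unknown. Standard errors had a median of 0.14 at means of 72.0 or more and of 0.80 below. The threshold was an adjusted p of 0.05, and intervals are 95% normal intervals. Gene IDs were matched to names (33483 of 33644) and to GENCODE 29 (33582). Alternatives were a 1.5-fold test, other sets of genes for adjustment, widened errors, centred changes and other gene lengths. The scripts were tested on simulated data. The members, lists and named genes (all members, nearest coding genes, up to 3 called genes per list with the largest change and a mean of at least 72.0, and the 3 closest to HHLA2) were chosen with earlier results of these data known. Motifs were chosen after the values were seen. Python 3.11.15, numpy 2.4.6, pandas 2.3.3, scipy 1.17.1 and matplotlib 3.10.9 were used.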

Additional observations from a re-analysis of the deposited data

How the results depend on the processing

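These alternatives re-adjust or re-test the deposited values and leave each log2 fold change as it is, so they bear on calls and not on direction. Centring subtracted a median of 0 and moved nothing. HHLA2 was called higher under the other 5 (largest adjusted p = 2.37e-74), and TMIGD2 was called lower under the same 5 (largest adjusted p = 0.0154). The count of members called lower was 2 in the deposited comparison and 1 when tested against a 1.5-fold change, where ICOS lost its call (adjusted p = 0.748), while the other alternatives left the count at 2. With errors widened by a factor of 2.03 to the spread of all statistics, 8.58% of genes were called in place of 29.5%. The order of levels was the same for all 10 members with each of 3 lengths. No paired analysis was possible because the table holds no values per sample, and for the same reason no fit leaving out a replicate and no other normalization was run. The depth per sample is unknown. The 3 members below a mean normalized count of 72.0, CD28, CD274 and CD276, had standard errors from 0.38 to 0.82, and those of CD28 and CD276 exceeded the errors of 76% and 86% of the 200 genes nearest in mean.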
